A study of Saccharomyces cerevisiae with 12 samples.

Results

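The glycine cleavage and one-carbon genes described here are 9 of the 6650 genes in the deposited files. They were taken by systematic name, and all 9 were present in both files. SHM1 (YBR263W) and SHM2 (YLR058C) encode the mitochondrial and the cytosolic serine hydroxymethyltransferase. GCV1 (YDR019C), GCV2 (YMR189W), GCV3 (YAL044C) and LPD1 (YFL018C) encode the T, P, H and L proteins of the mitochondrial glycine cleavage complex. MTD1 (YKR080W) encodes a cytosolic methylenetetrahydrofolate dehydrogenase, ADE3 (YGR204W) the cytosolic multifunctional one-carbon tetrahydrofolate synthase, and BAS1 (YKR099W) a Myb-type transcription factor.

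Serine hydroxymethyltransferase moves a carbon unit from serine to tetrahydrofolate and leaves glycine. The glycine cleavage complex releases a further unit from glycine, and the folate enzymes then pass these units to purine, methionine and thymidylate synthesis. In budding yeast Bas1, together with Pho2, activates purine, histidine and one-carbon genes, and the GCV genes are known to be induced by glycine.

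RNA polymerase II (Pol II) was measured over these genes by chromatin immunoprecipitation and sequencing with a mouse monoclonal antibody against its C-terminal domain, beside input DNA that had not been precipitated. All strains were W303 of mating type alpha, grown in glucose to an optical density of 0.5, with the auxotrophic alleles ura3-1, trp1-delta, ade2-1 and his3-11,15 and a leu2 allele, whose number is spelled differently in the labels of Pcf11-DNL than in those of WT and Pcf11-13. In all of them TRP1 replaced the chromosomal PCF11, and a pRS325-LEU2 plasmid carried the Pcf11 gene. This was V5-PCF11-MYC in WT, pcf11-13 in Pcf11-13, and V5-pcf11-deltaN-linkMYC in Pcf11-DNL, which the design text calls Pcf11-dQN. The labels name no tag for pcf11-13. Each of the 3 genotypes had 2 Pol II and 2 input libraries, described as biological replicates, so every comparison below rests on 2 libraries against 2. Pcf11 is a subunit of the pre-mRNA cleavage factor and takes part in Pol II termination, and pcf11-13 is known for changes in the domain that binds the Pol II C-terminal domain. Every strain carried ade2-1, a defect in the purine pathway that the one-carbon units feed.

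Mean deposited Pol II coverage per gene ran from 140.1 to 300.7 over the 6 Pol II libraries, and input coverage from 132.3 to 189.1. WT replicate 1 and Pcf11-DNL replicate 2 stood apart from the other Pol II libraries by a narrower range over genes, with a standard deviation of log2 coverage of 0.93 and 0.92 against 1.08 to 1.19. In these libraries genes with little Pol II read higher: the median scaled coverage of 34 meiosis and sporulation genes was 61.1 and 58.4, against 35.9 to 43.8 in the other 4. In the ratio of Pol II to input, 4 alpha-cell genes had a median of 3.32-fold to 6.18-fold over the median gene, and 5 a-cell genes 0.233-fold to 0.480-fold, though SAG1 of the alpha-cell genes was only at 0.984-fold to 1.48-fold. The WT libraries had 159.7 and 174.2 of scaled Pol II over PCF11, those of Pcf11-13 had 785.2 and 876.7, and those of Pcf11-DNL had 163.4 and 163.8. Input coverage of PCF11, LEU2 and TRP1 was also higher in Pcf11-13, by 0.56, 0.44 and 0.62 on the log2 scale (limma adjusted p = 2.3e-04, 1.0e-04 and 9.6e-05). The pcf11-13 allele cannot be told apart from these differences in input DNA, in Pol II over PCF11, and in the tags.

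In WT cells the 9 genes spanned a wide range of Pol II. Values are scaled coverage, the deposited read coverage divided by a factor for each library. How the authors averaged coverage over a gene is not given in the sources used here. Short Watson genes fitted a mean per base (138 of 140) and most short Crick genes did not (51 of 150 did), so the order between genes, and between Crick and Watson genes above all, assumes a mean per base. ADE3 (chromosome VII, 905934 to 908774, Watson strand) was highest, with 219.5 and 275.4 in WT replicates 1 and 2, a Pol II to input ratio 1.90-fold over the median gene. It ranked 955 of 6641 genes. SHM2 (chromosome XII, 257992 to 259401, Crick strand) followed with 169.2 and 154.7.

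SHM1 (chromosome II, 736264 to 737736, Watson strand) had 135.3 and 158.9. LPD1 (chromosome VI, 101628 to 103127, Crick strand), whose protein also serves the pyruvate and 2-oxoglutarate dehydrogenases, had 141.6 and 149.2. MTD1 (chromosome XI, 590395 to 591357, Watson strand) had 146.1 and 139.8. From SHM2 down to MTD1 the WT libraries of each gene overlapped with those of the next in this order, so these neighbours did not differ beyond their spread. ADE3 lay above SHM2 without overlap.

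BAS1 (chromosome XI, 635851 to 638286, Watson strand) had 131.2 and 135.3 in WT. GCV3 (chromosome I, 57950 to 58462, Crick strand) had 126.2 and 117.5. Neither overlapped with the gene before it in the order, and both lay near the median gene, at 1.02-fold and 0.908-fold in the ratio to input. GCV2 (chromosome XIII, 637500 to 640604, Watson strand) and GCV1 (chromosome IV, 484163 to 485365, Crick strand) were lowest, with 84.0 and 57.0 for GCV2 and 81.1 and 54.8 for GCV1. Their Pol II to input ratios were 0.539-fold and 0.470-fold of the median gene, and only 11.4% and 7.91% of genes ranked below them. The genes of the P and T proteins thus carried about as much Pol II as each other, less than the H protein gene GCV3 and less than LPD1. In WT they were at 1.33 to 1.59 times the median of the meiosis and sporulation genes of the same library.

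**Figure D1:**
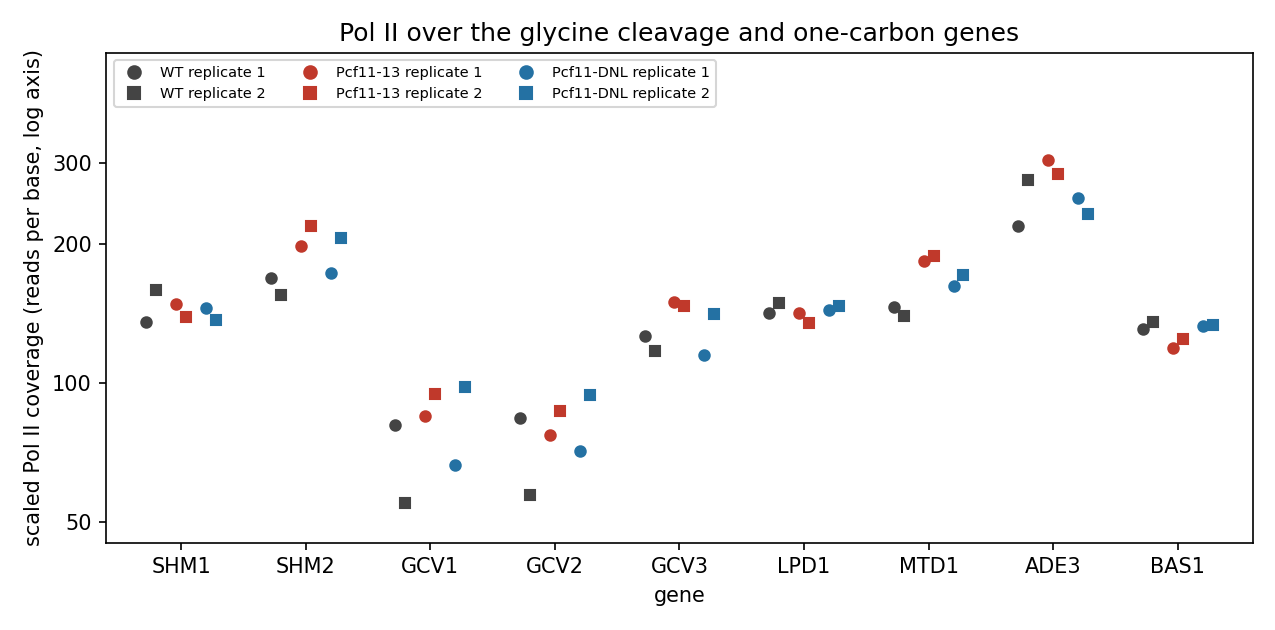
Scaled Pol II coverage (log axis) of the 9 genes in each of the 6 Pol II libraries, coloured by genotype, with circles for replicate 1 and squares for replicate 2. The axis unit, reads per base, assumes that the deposited values are a mean per base. GCV1 and GCV2 lie below 100 in all 6 libraries, and within each library ADE3 lies above all the others. SHM2, GCV1, GCV3, MTD1 and ADE3 have both Pcf11-13 libraries above both WT libraries, as do 19.6% of all genes.

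The comparison of Pcf11-13 with WT asks whether Pol II over these genes differs between strains with the altered and the normal Pcf11. Of the 9 genes, 0 passed the limma test over all 6642 genes tested (adjusted p under 0.05), against 1.13% of all genes. At an unadjusted p under 0.05 there were 3 of the 9, SHM2, GCV3 and MTD1, against 12.6% of all genes. The gene with the smallest p was MTD1. In 5 of the 9, SHM2, GCV1, GCV3, MTD1 and ADE3, both Pcf11-13 libraries lay above both WT libraries, beside 19.6% of all genes. In 1, BAS1, both lay below, against 20.5%. The median log2 difference of the 9 was 0.25 and that of all genes was -0.02.

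MTD1 had 183.7 and 188.2 in Pcf11-13 against 146.1 and 139.8 in WT. All values of the mutant were above those of WT, and the gap was wider than the spread within either genotype. The difference was 1.30-fold (log2 0.38, SE 0.07, 95% interval 0.21 to 0.54, adjusted p = 0.053). It did not pass with quantile normalization (adjusted p = 0.061), no filter (0.097) or scaling on the meiosis and sporulation genes (0.90). With library means as scaling or a pseudocount of 10 it passed (adjusted p = 0.030 and 0.044), beside 292 and 96 of all genes. The input of MTD1 was 0.05 lower on the log2 scale (SE 0.03, adjusted p = 0.88). With the input of the same replicate subtracted on the log2 scale, the difference was 0.43 (SE 0.08) and passed the test (adjusted p = 0.028), in a setting where 2.09% of all genes passed. MTD1 was the only one of the 9 that passed there, and in the same setting 0 of the 9 passed in Pcf11-DNL against WT (0.0301% of all genes) or between the mutants (0.196%). A fit without a library leaves a single library in that genotype, and without a WT library the spread between the WT libraries is left out. MTD1 also passed without WT replicate 1 (log2 0.41, adjusted p = 9.0e-04) and without WT replicate 2 (0.35, adjusted p = 0.0044), where 432 and 1216 of all genes passed, and without Pcf11-DNL replicate 1 or 2 (adjusted p = 0.035 and 0.018), where 189 and 242 did. It did not pass without Pcf11-13 replicate 1 (log2 0.39, adjusted p = 0.45) or 2 (0.36, adjusted p = 0.39), where 9 and 8 genes did, nor with a replicate block (adjusted p = 0.073) or without the mean-variance trend (adjusted p = 0.20).

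SHM2 had 198.0 and 219.5 in Pcf11-13 against 169.2 and 154.7 in WT, without overlap. That was 1.29-fold (log2 0.36, SE 0.10, 95% interval 0.13 to 0.60, adjusted p = 0.15). It passed without WT replicate 1 (log2 0.43), WT replicate 2 (0.30) or Pcf11-DNL replicate 2 (0.37), beside 432, 1216 and 242 of all genes. It did not pass without Pcf11-13 replicate 1 (0.44, adjusted p = 0.48) or 2 (0.29, adjusted p = 0.76), or Pcf11-DNL replicate 1 (0.36, adjusted p = 0.071), beside 9, 8 and 189 of all genes. SHM1, the gene of the mitochondrial isozyme, had 148.6 and 139.2 against 135.3 and 158.9, with the mutant between the WT libraries. Its difference was -0.03 (SE 0.09, 95% interval -0.24 to 0.18, adjusted p = 0.93). The intervals here and below are not adjusted for the number of genes.

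The ratio of the isozyme genes within a library does not depend on the factor that divides each library. It is not free of differences in range between libraries, whose part was not tested. Replicates 1 and 2 of WT gave deposited coverage of SHM2 over SHM1 of 1.25 and 0.974, those of Pcf11-13 gave 1.33 and 1.58, and those of Pcf11-DNL gave 1.20 and 1.51. The Pcf11-13 libraries were both above WT, and those of Pcf11-DNL overlapped with both other genotypes. An exact permutation test of 2 libraries against 2 cannot give a two-sided p below 0.333, and the ratios are given as values only.

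The glycine cleavage genes differed in how closely their libraries agreed. GCV3 had 150.2 and 146.6 in Pcf11-13 against 126.2 and 117.5 in WT, without overlap, a 1.22-fold difference (log2 0.28, SE 0.10, 95% interval 0.06 to 0.51, adjusted p = 0.27). GCV1 had 84.9 and 94.7 against 81.1 and 54.8. The mutant libraries were above both, but the WT libraries differed from each other by 0.56 on the log2 scale, more than the 0.42 between the genotypes (SE 0.21, 95% interval -0.05 to 0.90, adjusted p = 0.46). GCV2 had 76.9 and 86.8 against 84.0 and 57.0, with overlap (log2 0.24, SE 0.19, 95% interval -0.19 to 0.66, adjusted p = 0.66). Without WT replicate 1, GCV1, GCV2 and GCV3 passed (log2 0.70, 0.51 and 0.33), as did 432 of all genes, and without WT replicate 2 none of them did (0.14, -0.04 and 0.23), where 1216 of all genes passed.

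LPD1, the subunit gene shared with other complexes, had 141.9 and 134.9 in Pcf11-13 against 141.6 and 149.2 in WT. The libraries overlapped, and the log2 difference was -0.07 (SE 0.07, 95% interval -0.23 to 0.09, adjusted p = 0.74). Within a library, coverage of GCV3 over LPD1 was 0.891 and 0.788 in WT and 1.06 and 1.09 in Pcf11-13. GCV1 over LPD1 was 0.573 and 0.368 in WT and 0.598 and 0.702 in Pcf11-13, and GCV2 over LPD1 was 0.593 and 0.382 against 0.542 and 0.643. The first and second of these ratios were higher in both Pcf11-13 libraries than in both WT libraries, and the third overlapped. MTD1 over ADE3 overlapped as well, at 0.666 and 0.507 in WT and 0.604 and 0.664 in Pcf11-13. How often ratios of other genes lie apart in this way was not computed, so these too are values only.

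**Figure D2:**
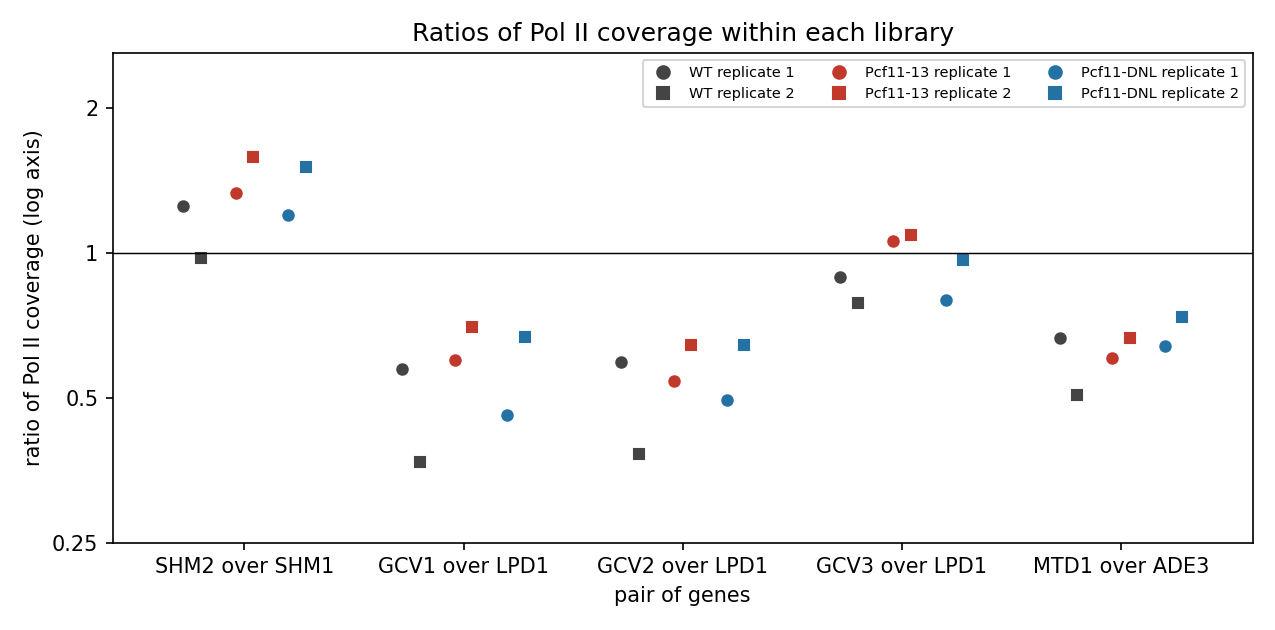
Ratio of deposited Pol II coverage between pairs of the genes (log axis) in each of the 6 libraries, coloured by genotype, with circles for replicate 1 and squares for replicate 2; the line marks equal coverage. GCV3 over LPD1 is above 1 in both Pcf11-13 libraries, at 1.06 and 1.09, and below 1 in the other 4.

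Within WT and within Pcf11-DNL, GCV1 and GCV2 were higher in the library of narrow range, WT replicate 1 and Pcf11-DNL replicate 2, in which meiosis and sporulation genes were high as well. Over all 6 libraries both genes were highest in Pcf11-DNL replicate 2, at 97.9 for GCV1 and 94.1 for GCV2. Both Pcf11-13 libraries of GCV1 and replicate 2 of GCV2 lay above WT replicate 1, and Pcf11-13 replicate 1 of GCV2 lay below it. Set over the median of those genes in the same library, the WT libraries of GCV1 were at 1.33 and 1.53, its Pcf11-13 libraries at 2.21 and 2.38, and its Pcf11-DNL libraries at 1.51 and 1.68. For GCV2 the WT libraries were at 1.37 and 1.59, those of Pcf11-13 at 2.00 and 2.18, and those of Pcf11-DNL at 1.63 and 1.61.

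On this scale both Pcf11-13 libraries lay above both WT libraries for GCV1, GCV2, GCV3, SHM2 and MTD1, beside 13.5% of all genes, and below for 0 of the 9, beside 2.33%. Pcf11-DNL lay above WT for GCV2 alone of the 9 (1.25% of all genes) and below for 0 (0.647%). Pcf11-DNL lay below Pcf11-13 for all 9, as did 80.9% of all genes, and above for 0 (3.3%). This scale was chosen after its values were seen. Used in the fit, it moved the median log2 difference of all genes from -0.02 to 0.23, so that most genes read higher in Pcf11-13. All 9 genes did so too, with 0 passing, where 6 of all genes passed. The exact share of all genes that read higher was not computed. The part of the library range in these differences was not tested. Without WT replicate 1 and Pcf11-DNL replicate 2, GCV1 was 0.71 higher in Pcf11-13 (limma adjusted p = 2.1e-04), GCV2 0.52 (adjusted p = 0.0026), SHM2 0.44 (adjusted p = 0.0054), MTD1 0.42 (adjusted p = 0.0038) and GCV3 0.34 (adjusted p = 0.011). WT and Pcf11-DNL then had a single library each, assumed to vary like Pcf11-13, and 618 genes passed in place of 75.

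**Figure D3:**
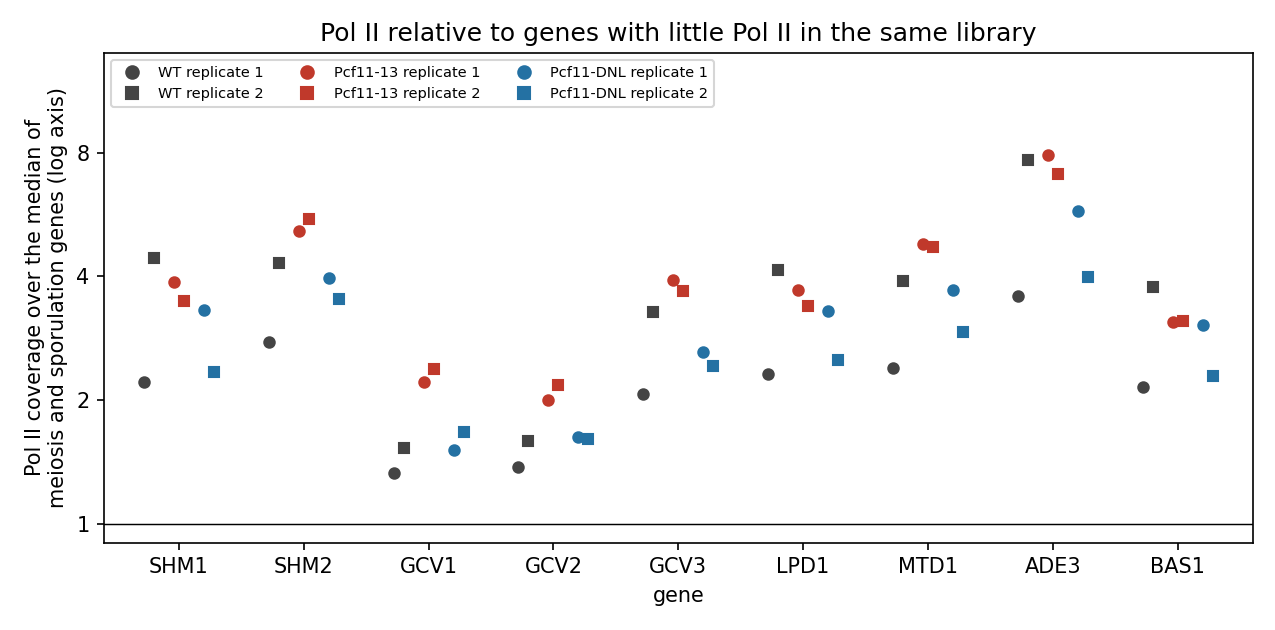
Pol II coverage of the 9 genes divided by the median coverage of 34 meiosis and sporulation genes in the same library (log axis), coloured by genotype, with circles for replicate 1 and squares for replicate 2. GCV1 is at 1.33 and 1.53 in WT and at 2.21 and 2.38 in Pcf11-13, while the WT libraries of ADE3 lie at 3.60 and 7.68 and enclose the Pcf11-DNL values.

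ADE3, whose enzyme interconverts the folate forms used in purine synthesis, had 303.9 and 283.5 in Pcf11-13 against 219.5 and 275.4 in WT. The mutant libraries were above both, by little over WT replicate 2 (log2 0.25, SE 0.12, 95% interval -0.01 to 0.52, adjusted p = 0.42). Without WT replicate 2 ADE3 was 0.42 higher (adjusted p = 0.0024, beside 1216 of all genes called), and without WT replicate 1 it was 0.09 higher (adjusted p = 0.81). BAS1 had 118.9 and 124.3 in Pcf11-13 against 131.2 and 135.3 in WT. It was the only one of the 9 with both Pcf11-13 libraries below WT (log2 -0.13, SE 0.07, 95% interval -0.28 to 0.02, adjusted p = 0.48).

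**Figure D4:**
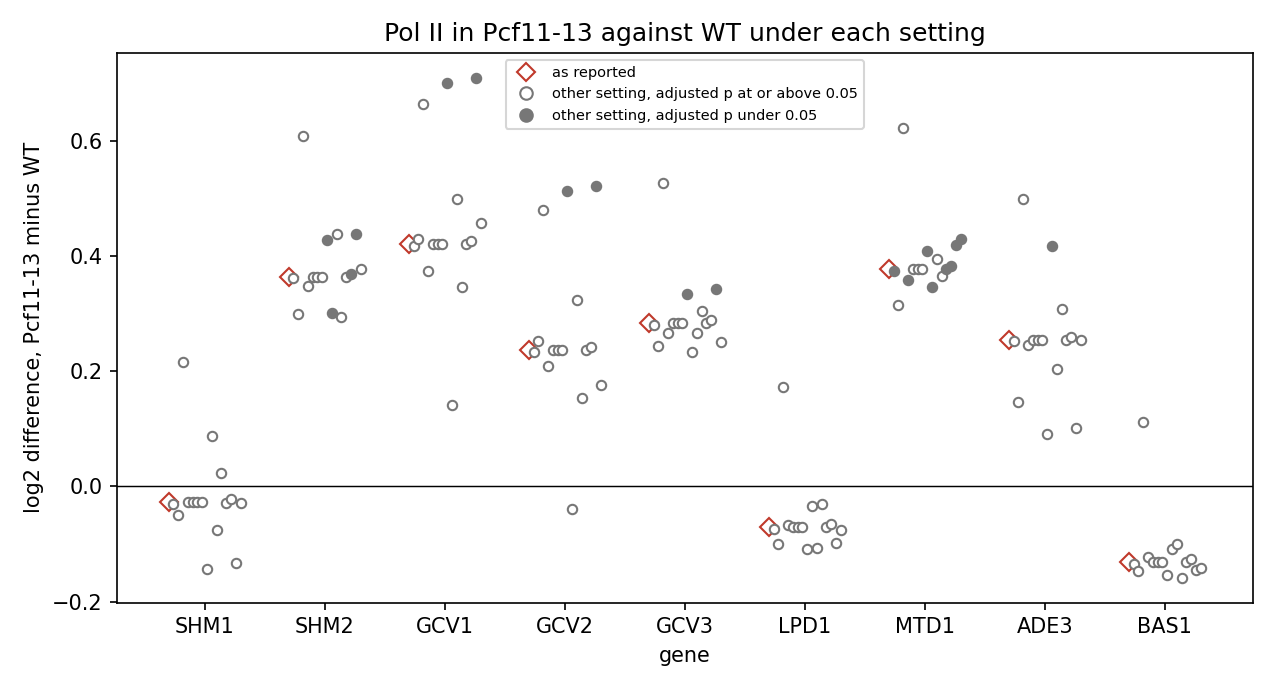
Log2 difference in Pol II between Pcf11-13 and WT for each gene as reported (open diamonds) and under 15 other settings (circles, filled where the adjusted p was under 0.05). MTD1 is filled in 8 of 15 settings and SHM2 in 4, while SHM1, LPD1 and BAS1 are open throughout.

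For the second allele, Pcf11-DNL, the question is the one asked of Pcf11-13. Against WT, 0 of the 9 genes passed, against 0.0151% of all genes, and 1 of the 9, MTD1, had an unadjusted p under 0.05, against 1.61% of all genes. Both Pcf11-DNL libraries lay above both WT libraries for SHM2 and MTD1, as for 9.09% of all genes, and below for 0 of the 9, against 7.6%. The median log2 difference of the 9 was 0.07, and that of all genes -0.0004.

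MTD1 had 161.9 and 171.1 in Pcf11-DNL, above the WT values of 146.1 and 139.8 (1.16-fold, log2 0.22, SE 0.07, 95% interval 0.05 to 0.38, adjusted p = 1). SHM2 had 173.6 and 206.1 against 169.2 and 154.7, with Pcf11-DNL replicate 1 close to WT replicate 1 (log2 0.22, SE 0.10, 95% interval -0.01 to 0.46, adjusted p = 1). BAS1 had 133.1 and 133.7, between the WT values, with a difference of 0.00 (SE 0.07, 95% interval -0.15 to 0.16). LPD1 had 144.1 and 146.6, also between them (log2 -0.0004, 95% interval -0.16 to 0.16).

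The remaining genes overlapped with WT. GCV1 had 66.2 and 97.9 in Pcf11-DNL and GCV2 had 71.1 and 94.1, in each case higher in replicate 2, the library of narrow range (log2 0.27, SE 0.21, and 0.24, SE 0.19). GCV3 had 114.9 and 141.3 (0.07, SE 0.10), ADE3 252.2 and 233.1 (-0.02, SE 0.12), and SHM1 145.1 and 136.9 (-0.06, SE 0.09). Without WT replicate 1, GCV1 and GCV2 passed the test (log2 0.55, adjusted p = 9.8e-05, and 0.51, adjusted p = 4.0e-04), against the single library WT replicate 2, as did 401 of all genes. Without WT replicate 2 their differences were -0.01 and -0.04.

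**Figure D5:**
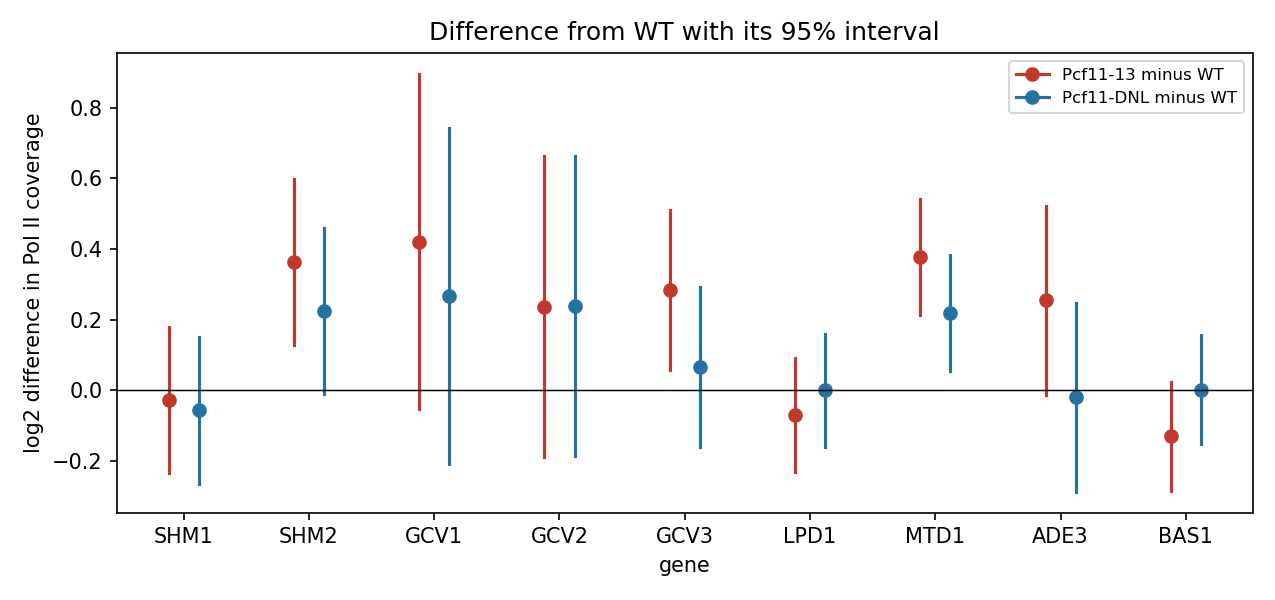
Log2 difference in scaled Pol II coverage from WT for Pcf11-13 and Pcf11-DNL (points) with its 95% interval from the limma fit (lines, not adjusted for the number of genes). The intervals of MTD1 lie above 0 in both mutants, from 0.21 to 0.54 and from 0.05 to 0.38, and those of SHM1 and LPD1 include 0 in both.

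Between the mutants, 0 of the 9 genes passed, against 0.166% of all genes, and 1, ADE3, had an unadjusted p under 0.05, against 11% of all genes. Pcf11-DNL was below Pcf11-13 in both libraries for GCV3, MTD1 and ADE3, as for 26.7% of all genes, and above for LPD1 and BAS1, as for 29.1%. MTD1 was 0.16 lower in Pcf11-DNL (SE 0.07, adjusted p = 0.47), GCV3 lower by 0.22 (SE 0.10, adjusted p = 0.47) and ADE3 by 0.27 (SE 0.12, adjusted p = 0.45). GCV3 and ADE3 passed without WT replicate 1 or WT replicate 2, where 672 and 679 of all genes did. BAS1 was 0.13 higher (SE 0.07, adjusted p = 0.50), since the comparisons with WT had given -0.13 in Pcf11-13 and 0.00 in Pcf11-DNL. The comparisons share libraries, so their values stand side by side only. SHM2 was lower by 0.14 (95% interval -0.37 to 0.09) and SHM1 by 0.03 (-0.24 to 0.18).

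Input DNA over the 9 genes differed little between the genotypes. The log2 differences ran from -0.05 to 0.06 in Pcf11-13 against WT, from -0.03 to 0.01 in Pcf11-DNL against WT, and from -0.08 to 0.05 between the mutants. Of the 9, 0 were called in each comparison by limma, where 0.256%, 0% and 0.256% of all genes were. At an unadjusted p under 0.05 there were 0, 0 and 1, and the share of all genes there was not computed. Between the mutants, input was lowest in Pcf11-DNL over GCV2 (log2 -0.08, SE 0.03, adjusted p = 0.86) and GCV3 (-0.07, SE 0.02, adjusted p = 0.86). In the ratio to input, MTD1 was 1.08-fold and 1.04-fold over the median gene in WT, 1.40-fold and 1.42-fold in Pcf11-13, and 1.20-fold and 1.33-fold in Pcf11-DNL.

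Other genes of the pathway were read from lists of related genes. Of 17 further folate and one-carbon genes, 0 were called in either direction in any comparison. Over all genes 1.13% were called in Pcf11-13, 0.0151% in Pcf11-DNL and 0.166% between the mutants. At an unadjusted p under 0.05 there were 1, 0 and 2 of the 17, against 12.6%, 1.61% and 11% of all genes. The median difference of the 17 was -0.05 in Pcf11-13, beside -0.02 for all genes. CDC21, of thymidylate synthesis, had 88.4 ± 2.45 in Pcf11-13 and 101.9 ± 3.80 in WT (SD, n = 2; log2 -0.20, adjusted p = 0.29). MIS1, the mitochondrial counterpart of ADE3, had a log2 difference of -0.17 (adjusted p = 0.50).

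Of 8 genes that supply or use serine and glycine, 1 was called, lower in Pcf11-13, against 1.13% of all genes called in either direction. This was CHA1, which breaks down serine and threonine, with 46.6 ± 6.36 in Pcf11-13 against 134.0 ± 40.0 in WT (SD, n = 2; log2 -1.48, adjusted p = 0.019). The WT libraries of CHA1 were far apart. Without Pcf11-13 replicate 1 or 2 its difference was about as large, at -1.34 and -1.61, and did not pass (adjusted p = 0.23 and 0.081), and it did not pass with no filter (adjusted p = 0.11) or no mean-variance trend (0.20). The list's median was 0.00. At an unadjusted p under 0.05 there were 3 of the 8 in Pcf11-13, against 12.6% of all genes. Besides CHA1 these were SER3 (log2 0.46, SE 0.10, adjusted p = 0.083) and SER1 (0.19, SE 0.07, adjusted p = 0.34), both higher. In Pcf11-DNL 0 of the 8 were called, against 0.0151% of all genes, and 0 had an unadjusted p under 0.05, against 1.61%. Between the mutants these counts were 0, against 0.166%, and 2, against 11%.

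Lipoamide dehydrogenase partners, the other subunits of the complexes that use Lpd1 and the enzymes that attach lipoate, had a median of -0.07 over 9 genes in Pcf11-13. Of these 0 were called in any comparison, where 1.13%, 0.0151% and 0.166% of all genes were in Pcf11-13, Pcf11-DNL and between the mutants. In each comparison 0 had an unadjusted p under 0.05, against 12.6%, 1.61% and 11% of all genes. In Pcf11-13 against WT the smallest p belonged to KGD2, of the 2-oxoglutarate dehydrogenase (log2 -0.14, adjusted p = 0.49), and PDX1, of the pyruvate dehydrogenase (0.13, adjusted p = 0.56).

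Of 14 genes of purine and histidine synthesis under Bas1 and Pho2, with PHO2 itself among them, 2 were called, both higher in Pcf11-13, against 0.979% of all genes. The lower calls were 0 of the 14, against 0.151%. HIS4, of histidine synthesis, had 350.8 ± 4.88 against 172.1 ± 5.07 (SD, n = 2; log2 1.02, adjusted p = 6.5e-04), and ADE12, of adenylate synthesis, 215.7 ± 3.80 against 153.0 ± 12.3 (log2 0.50, adjusted p = 0.043). Without Pcf11-13 replicate 1 or 2 HIS4 still passed (adjusted p = 0.017 in each), and ADE12 did not, with a difference of 0.51 and 0.48 (adjusted p = 0.35 and 0.30). Scaled on the meiosis and sporulation genes neither passed (log2 1.27 and 0.74, adjusted p = 0.90 in each), and ADE12 did not pass with quantile normalization (adjusted p = 0.076), no filter (0.11) or no mean-variance trend (0.20). All 14 had a difference above 0, where 46% of all genes had, and their median was 0.24. The 9 genes described here had a median of 0.25 and ran from -0.13 to 0.42, with 6 of them above 0. In Pcf11-DNL 0 of the 14 were called, against 0.0151% of all genes, 12 were above 0, where 49.7% of all genes were, and the median was 0.08. Between the mutants 1 was called, HIS4, lower in Pcf11-DNL (log2 -0.69, adjusted p = 0.02), against 0.166% of all genes. Without Pcf11-13 replicate 1 or 2 this difference was -0.70 and -0.68 and did not pass (adjusted p = 0.23 in each), nor did it with quantile normalization (adjusted p = 0.10), on the meiosis and sporulation genes (0.65) or with no mean-variance trend (0.13).

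Because Pcf11 acts at gene ends, the nearest annotated gene on each side of each of the 9 was also read. The files held 17 of these 18 neighbours, the other being the transfer RNA gene SUF9 next to the end of LPD1. Of the 17, 0 were called by limma in Pcf11-13 against WT, Pcf11-DNL against WT or between the mutants, where 1.13%, 0.0151% and 0.166% of all genes were. At an unadjusted p under 0.05 there were 1, 0 and 1, against 12.6%, 1.61% and 11% of all genes. Differences in Pcf11-13 ran from -0.20 to 0.25 with a median of 0.02. The largest was over YGR204C-A (log2 0.25, SE 0.11, adjusted p = 0.39), a small reading frame on the opposite strand, 286 bp past the end of ADE3. Next in size was MLG1 (-0.20, SE 0.12, adjusted p = 0.55), 302 bp past the end of GCV1, the only neighbour downstream of one of the 9 on the same strand. The libraries do not separate strands, so reads past the end of ADE3 and reads of YGR204C-A cannot be told apart.

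The mean profile of the 9 genes over the 6 Pol II libraries, centred on its own mean on the log2 scale, stood at -0.06 and -0.14 for the WT libraries, at 0.08 and 0.11 for Pcf11-13 and at -0.07 and 0.08 for Pcf11-DNL. SHM2 followed the mean of the other 8 most closely (r = 0.97 over 6 libraries), then GCV3 (0.91) and MTD1 (0.88). BAS1 (-0.70), LPD1 (-0.63) and SHM1 (-0.58) ran against it. ADE3 had an r of 0.06. Of the named genes outside the group, IML2, MET28, ISF1, MAL12 and STR2 had the profiles nearest to the mean, at a root mean square distance of 0.02 to 0.03. The 9 genes themselves lay farther from it, at 0.07 (GCV3) to 0.21 (GCV1), so nearness to the mean is not nearness to each gene. These are descriptions over 6 libraries that share their depth and range with every gene.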

How the data were processed

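The deposited files hold 1 value per gene and library for 6 Pol II and 6 input libraries. The authors deposited read coverage, a signal not scaled to depth; read numbers per gene are unknown, so no counting interval is given. The tools listed in the submitters' processing notes, without roles, are deepTools 3.1.2, Trimmomatic 0.38 and BWA 0.7.17-r1188, and the build is sacCer3. Coverage multiplied by gene length was whole in all 12 libraries (within 0.0006 per base) for 138 of 140 Watson and 51 of 150 Crick genes of at most 300 bp. None of the 9 genes fitted a stretch of at most 300 bp. Coordinates are those of RefSeq R64, the assembly named sacCer3, which matched 5976 of the 6650 genes; strands are read from systematic names.

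Values were divided by unweighted trimmed-mean (TMM) factors (30 percent of log ratios and 5 percent of levels trimmed), a pseudocount of 1 was added, and log2 values of the 6 libraries of an assay were fitted together (limma 3.58.1, mean-variance trend on, R 4.3.3). Genes needed 10 or more in 2 or more libraries, which left 6642 for Pol II. Adjusted p-values are Benjamini-Hochberg over all genes tested. Fold changes are on the log2(value + 1) scale. The fit was tested on simulated data with noise drawn separately for each gene and library. Differences in range between libraries were not part of that test. Replicates are separate samples per the labels. The p-values set a genotype difference against the spread between replicates, estimated over all 3 genotypes with the mean-variance trend.

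The genes, lists and tests were chosen with earlier results of these data known. All 9 genes are named in every comparison. From each list the genes called are named, or the 2 with the smallest p in Pcf11-13. SER3 and SER1 are named for their unadjusted p. The 2 neighbours with the largest change and the 5 nearest profiles are named too. Other scalings, pseudocount, filter, variance prior, a replicate block, input subtraction and left-out libraries were tried as alternatives.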

Additional observations from a re-analysis of the deposited data

How the results depend on the processing

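Of 75 genes called in Pcf11-13 against WT 65 were higher, and with library means as scaling 251 of 292, with quantile normalization 210 of 272, and on meiosis and sporulation genes 2 of 6. Between the mutants the split was 4 higher and 7 lower, and 20 and 99 with library means, or 31 and 1 on meiosis and sporulation genes. The cause of each change below was not tested. Libraries with the same number were not paired by any label, and their deviations from the genotype means correlated at -0.085, -0.89 and -0.075 (Pcf11-13 with WT, Pcf11-DNL with WT, and the mutants), so the replicate block is only an alternative. With it 107 genes were called in Pcf11-13 against WT, and 0 of the 9 in each Pol II comparison. Leaving out a WT library takes the spread between the WT libraries out of the pooled estimate, so its p-values rest on the mutants' spread: Pcf11-13 against WT gave 432 and 1216 calls without WT replicate 1 or 2, 9 and 8 without Pcf11-13 replicate 1 or 2, and 189 and 242 without Pcf11-DNL replicate 1 or 2. Read numbers per gene are unknown, and 2 libraries a genotype limit every comparison. Differences below are log2. With library means as scaling: genes called 292 (Pcf11-13 against WT), 8 (Pcf11-DNL against WT) and 119 (the mutants), of the 9 called 1 (Pcf11-13 against WT), median of the 9 -0.094 (the mutants) and -0.022 (input of the mutants), opposite sign at ADE3 0.023 (Pcf11-DNL against WT), LPD1 0.043 (Pcf11-DNL against WT), SHM1 0.017 (the mutants), SHM1 -0.0029 (input of the mutants) and LPD1 -0.0045 (input of the mutants). With quantile normalization: genes called 272 (Pcf11-13 against WT), 5 (the mutants), 10 (input of Pcf11-13 against WT) and 10 (input of the mutants), median of the 9 -0.053 (the mutants), opposite sign at ADE3 0.0047 (Pcf11-DNL against WT), LPD1 0.0061 (Pcf11-DNL against WT), SHM1 0.0045 (the mutants), GCV2 -0.053 (the mutants), ADE3 -0.0023 (input of Pcf11-13 against WT) and LPD1 -0.00027 (input of Pcf11-13 against WT). With scaling on meiosis and sporulation genes: genes called 6 (Pcf11-13 against WT), 0 (Pcf11-DNL against WT) and 32 (the mutants), median of the 9 0.50 (Pcf11-13 against WT), -0.046 (Pcf11-DNL against WT), -0.50 (the mutants) and -0.019 (input of the mutants), opposite sign at SHM1 0.22 (Pcf11-13 against WT), LPD1 0.17 (Pcf11-13 against WT), BAS1 0.11 (Pcf11-13 against WT), GCV3 -0.046 (Pcf11-DNL against WT), BAS1 -0.11 (Pcf11-DNL against WT), GCV2 -0.35 (the mutants), LPD1 -0.28 (the mutants), BAS1 -0.22 (the mutants), SHM1 -6.9e-05 (input of the mutants) and LPD1 -0.0017 (input of the mutants). With a pseudocount of 10: of the 9 called 1 (Pcf11-13 against WT). With no filter: genes called 32 (Pcf11-13 against WT), 0 (Pcf11-DNL against WT) and 5 (the mutants). With a replicate block: genes called 3 (Pcf11-DNL against WT) and 20 (the mutants). With no mean-variance trend: genes called 10 (Pcf11-13 against WT), 0 (Pcf11-DNL against WT) and 2 (the mutants). With the libraries of narrow range left out: genes called 618 (Pcf11-13 against WT), 105 (Pcf11-DNL against WT) and 404 (the mutants), of the 9 called 5 (Pcf11-13 against WT) and 2 (the mutants), median of the 9 0.34 (Pcf11-13 against WT), -0.024 (Pcf11-DNL against WT) and -0.21 (the mutants), opposite sign at GCV3 -0.032 (Pcf11-DNL against WT), BAS1 -0.024 (Pcf11-DNL against WT), SHM1 0.0032 (the mutants) and GCV2 -0.21 (the mutants). With input subtracted: genes called 139 (Pcf11-13 against WT) and 2 (Pcf11-DNL against WT), of the 9 called 1 (Pcf11-13 against WT). With 1 library left out, Pcf11-13 against WT gave genes called 8 to 1216, of the 9 called 0 to 5, median of the 9 0.14 to 0.33, SHM1 -0.14 to 0.087 and GCV2 -0.039 to 0.51. With 1 library left out, Pcf11-DNL against WT gave genes called 0 to 401, of the 9 called 0 to 2, median of the 9 -0.0038 to 0.21, SHM1 -0.17 to 0.058, GCV1 -0.014 to 0.55, GCV2 -0.037 to 0.51, GCV3 -0.085 to 0.21, ADE3 -0.18 to 0.14, LPD1 -0.038 to 0.037 and BAS1 -0.021 to 0.024. With 1 library left out, the mutants gave genes called 1 to 679, of the 9 called 0 to 2, median of the 9 -0.21 to -0.017, SHM1 -0.083 to 0.018, GCV1 -0.44 to 0.13 and GCV2 -0.20 to 0.20. With 1 library left out, input of Pcf11-13 against WT gave median of the 9 -0.0079 to 0.019, SHM1 -0.020 to 0.021, ADE3 -0.019 to 0.021 and LPD1 -0.0060 to 0.015. With 1 library left out, input of Pcf11-DNL against WT gave median of the 9 -0.025 to 0.0054, SHM1 -0.014 to 0.038, GCV1 -0.026 to 0.049, MTD1 -0.062 to 0.0055, ADE3 -0.060 to 0.043 and BAS1 -0.013 to 0.0054. With 1 library left out, input of the mutants gave median of the 9 -0.021 to 0.0095, SHM1 -0.015 to 0.037, SHM2 -0.021 to 0.0060, MTD1 -0.0095 to 0.058 and ADE3 -0.062 to 0.041.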
